A study of Caenorhabditis elegans with 15 samples.

Results

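The transthyretin-related genes of Caenorhabditis elegans, named ttr with a number, encode a large nematode family of small, mostly secreted proteins with a fold like that of transthyretin. In vertebrates, transthyretin carries thyroid hormone and retinol-binding protein in the blood. Nematodes have many such genes, few of which have a known role, and related proteins are found among the products that parasitic nematodes release. In C. elegans, TTR-52 binds phosphatidylserine on dying cells and bridges it to the engulfment receptor CED-1, and TTR-33 protects dopamine neurons from oxidative damage. Members were taken as every probe set whose gene symbol, old or current, is ttr followed by a number. Of the 59 such genes in RefSeq (assembly WBcel235), 58 had a probe set on the array, each 1 probe set of its own, out of 29317 probe sets and 25478 genes with a probe set of their own. The gene ttr-41 was not analysed here.

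Whole young adult worms of the wild-type strain N2 Bristol were kept for 6 h at 20 °C in M9 buffer, and their total RNA was read on Gene 1.0 ST arrays from Affymetrix. The 15 arrays form 5 groups of 3: a control with only the solvent DMSO, fraction H3 at 0.02, 0.2 and 2 mg/mL, and RE. H3 is enriched in oligomeric procyanidins, which are condensed tannins, from leaves of Combretum mucronatum, a West African plant used against worms, and RE is the crude hydro-ethanolic extract of these leaves. For RE, the sample titles and the study's text give 0.2 mg/mL and the treatment field gives 2 mg/mL, and 0.2 mg/mL is used here. The comparisons ask which genes answer to the fraction, to its dose and to the crude extract. Each array was a separate biological replicate of 500 to 1000 worms. In whole worms, fewer cells of a type and less RNA per cell cannot be told apart.

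A value is the log2 expression value of a probe set, so that a difference of 1 is a doubling. The arrays fell into 2 sets on a principal component with 52% of the variance, and array medians were alike at 3.54 to 3.65. Set A had replicates 1 and 2 of the control, H3 0.02 and H3 2 and replicate 1 of H3 0.2 and RE, 8 arrays in all, and set B had the 7 others. Replicate 3 was thus the only control array in set B. Because the sets touch most of this family, the results are read from the groups alone and beside a fit that takes the set as a block. In the order of the sample list, all arrays of set A come first and those of set B follow. These sets were found in these arrays, and what they stand for is not in the labels. The block was thus drawn from the same values it is fitted to. A smaller SD with it is built in for genes that follow this component, and its p-values take the sets as known.

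Most of the family gave clear signals in the adult worm. Mean values over the 15 arrays ran from 1.52 to 9.53 with a median of 5.82, whereas the median over all probe sets was 3.6. In all, 39 members lay above the array median on every array, 10 on no array and 9 on some. The highest means belonged to ttr-16 (9.53), ttr-2 (9.30), ttr-18 (9.04), ttr-15 (8.88) and ttr-45 (8.73). The lowest belonged to ttr-57 (1.52), ttr-19 (1.85), ttr-58 (2.23), ttr-55 (2.24) and ttr-49 (2.51), which were not shown to be above background. A value depends on the probes as well as on the RNA, so that this order is one of signals and not of RNA amounts.

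**Figure D1:**
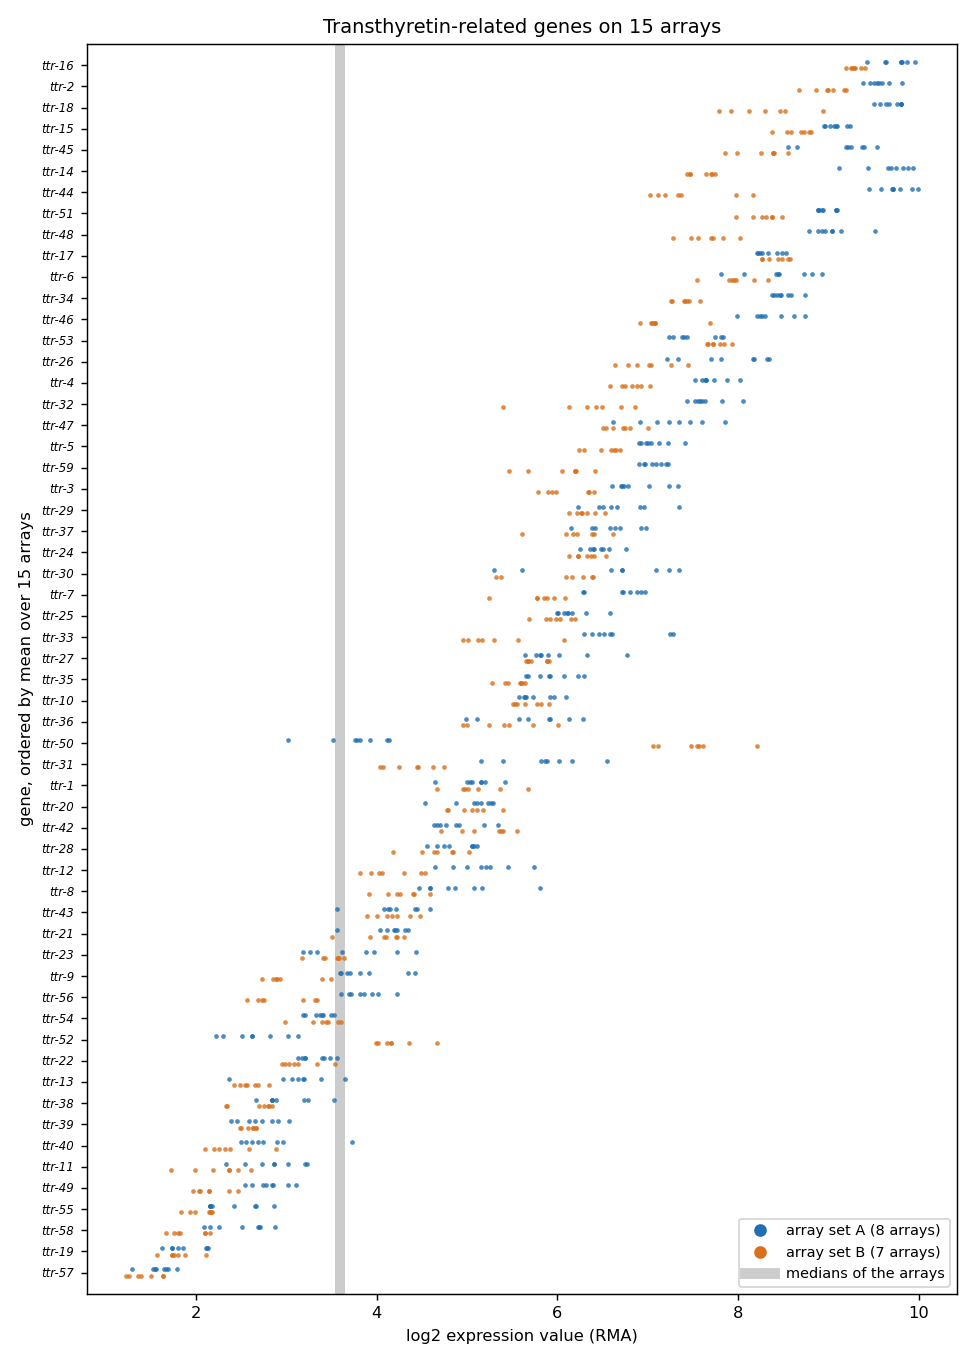
Log2 expression values (x axis) of the 58 transthyretin-related genes (y axis, ordered by mean), with each of the 15 arrays as a point coloured by array set and the range of the array medians as a grey band. Most genes lie right of the band, and for most of them the orange points of set B lie left of the blue points of set A, with ttr-50 and ttr-52 the other way round.

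Few members changed with treatment. In the limma fit over all 15 arrays, 2 of the 58 genes passed an adjusted p of 0.05 and a 2-fold change in any of 9 comparisons. ttr-30 rose at H3 2 and ttr-36 fell in RE. The other 56 passed in none. Against the control, 0 members were called at H3 0.02, where 0.624% of all probe sets were called, and 0 at H3 0.2, where 1.1% were. At H3 2 it was 1 of 58, or 1.72%, beside 1.57% of all probe sets (0.665% higher), and in RE again 1 of 58, beside 0.935% (0.536% lower). At an unadjusted p under 0.05 there were 4, 8, 11 and 7 members at H3 0.02, H3 0.2, H3 2 and RE, or 6.9%, 13.8%, 19% and 12.1%, and the shares of all probe sets were 7.18%, 10.6%, 12.9% and 9.38%. The family's shares thus lay near the background in this fit. All 4 comparisons use the same 3 control arrays.

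ttr-30 had the largest rise. The control arrays gave 5.30, 5.61 and 5.38 for replicates 1 to 3. H3 0.02 gave 6.59, 6.71 and 5.32, and H3 0.2 gave 7.09, 6.16 and 6.39. H3 2 gave 7.35, 7.24 and 6.38, and RE gave 6.71, 6.10 and 6.28. All arrays of H3 0.2, H3 2 and RE were above every control array, whereas replicate 3 of H3 0.02 lay within the control range. The control mean was 5.43 ± 0.16 (SD, n = 3) and that of H3 2 was 6.99 ± 0.53, a log2 fold-change of 1.56 (SE 0.37, 95% interval 0.75 to 2.37), which is 2.95-fold (adjusted p = 0.045). The differences of 0.78 at H3 0.02 (adjusted p = 0.729), 1.12 at H3 0.2 (0.225) and 0.94 in RE (0.411) did not pass. The call at H3 2 was lost in 11 of the 15 fits that left out 1 array (adjusted p 0.013 to 0.176) and held only without replicate 2 or 3 of H3 0.02, replicate 1 of H3 0.2 or replicate 3 of H3 2. It was also lost when only the 6 arrays of both groups were fitted (0.0965).

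Once the array set was blocked, ttr-30 passed in 3 treatments, at 1.36 at H3 0.2 (adjusted p = 0.00174), 1.56 at H3 2 (0.000352) and 1.18 in RE (0.00473). It did not pass at H3 0.02 (0.78, adjusted p = 0.0624). The block also raised the share of all probe sets called, to 1.39%, 2.22%, 3.09% and 2.07% at H3 0.02, H3 0.2, H3 2 and RE. Set against the control arrays of the same set, 11 of the 12 treated arrays were higher, by up to 1.89, and replicate 3 of H3 0.02 was lower by a difference of −0.06. In set A alone, ttr-30 was higher by 1.19, 1.64, 1.84 and 1.25 at H3 0.02, H3 0.2, H3 2 and RE, and in set B alone the differences were −0.06, 0.90, 1.00 and 0.82. The differences were thus smaller in set B, where they rest on 1 control array, and whether the sets differ in it was not tested.

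ttr-36 was the member that fell. The control arrays gave 6.13, 6.28 and 6.01. H3 0.02 gave 5.92, 5.91 and 5.41, H3 0.2 gave 5.57, 5.73 and 5.46, and H3 2 gave 5.68, 4.99 and 5.24. RE gave 5.11, 5.00 and 4.96. Every array of every treatment was below all 3 control arrays, and the RE arrays lay closest together. The mean fell from 6.14 ± 0.13 (SD, n = 3) to 5.03 ± 0.08 in RE, a log2 fold-change of −1.11 (SE 0.19, 95% interval −1.52 to −0.71), or 2.16-fold (adjusted p = 0.00833). At H3 2 the difference of −0.84 passed the adjusted p (0.0321) and was under 2-fold. The differences of −0.39 at H3 0.02 (adjusted p = 0.717) and −0.55 at H3 0.2 (0.229) were not past it. When control replicate 2 was left out, the value in RE was −1.04 with an adjusted p of 0.0505, and without replicate 1 of H3 2 the gene was called there too (−1.02, adjusted p = 0.0153). In the fit with the set block the value in RE was −1.05 (adjusted p = 0.0024), the second call in RE beside ttr-30. In set A alone, with 1 RE array, it was −1.09, and in set B alone, with 1 control array, −1.03. With 1 array in a group, these fits cannot decide the call.

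**Figure D2:**
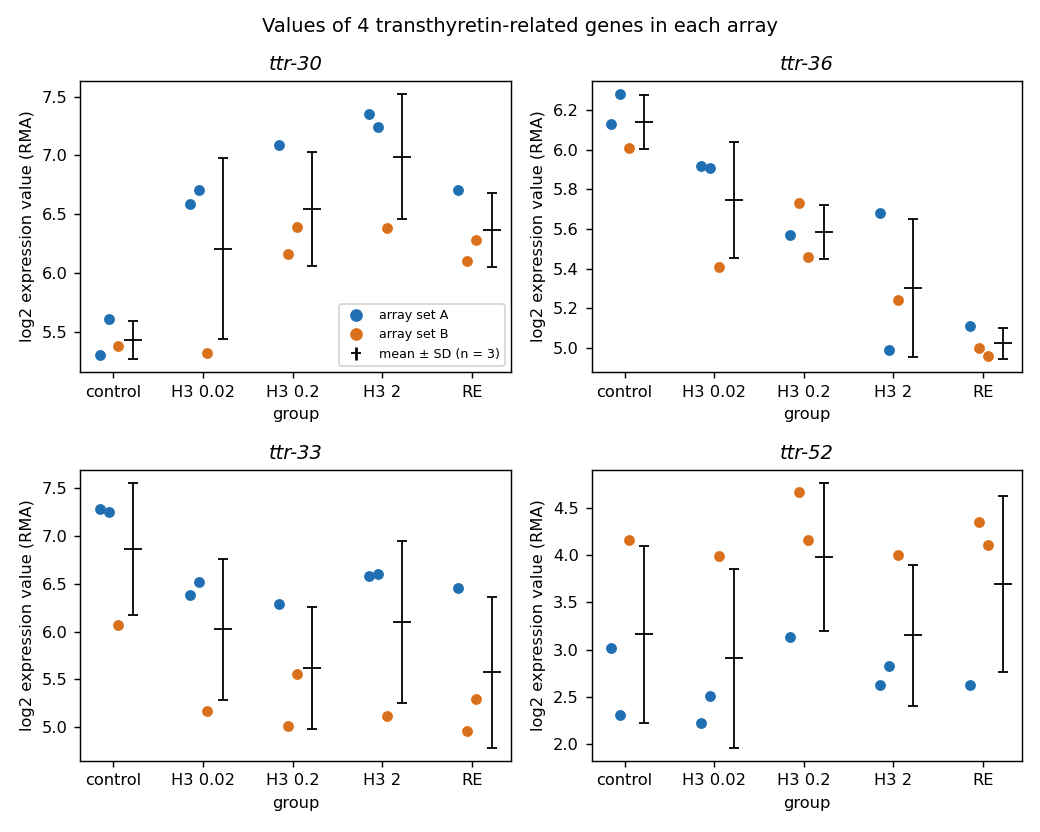
Log2 expression values (y axis) of ttr-30, ttr-36, ttr-33 and ttr-52 in each array of the 5 groups (x axis), coloured by array set, with the group mean and SD (n = 3) as a bar beside the points. ttr-30 is higher and ttr-36 lower than in the control in most treated arrays, whereas in ttr-33 and ttr-52 the distance between the sets is wider than that between the groups.

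ttr-33 was lower in every treated array than in the control arrays of the same set. The control gave 7.28, 7.25 and 6.07. H3 0.02 gave 6.38, 6.52 and 5.17, H3 0.2 gave 6.29, 5.01 and 5.56, H3 2 gave 6.58, 6.60 and 5.12, and RE gave 6.46, 4.96 and 5.30. The low array of the control, 6.07, was in set B, and the groups overlap unless the sets are taken apart. From the groups alone the log2 fold-changes in the same order of treatments were −0.84, −1.25, −0.77 and −1.29, of which none passed (adjusted p 0.436 to 0.948). With the block they were −0.84, −0.83, −0.77 and −0.87, all 4 with an adjusted p under 0.05 (0.00658, 0.00528, 0.00514 and 0.00417) and all under 2-fold. The SD within groups was 0.74 without the block and 0.18 with it. Against control arrays of its own set, each of the 12 treated arrays was lower, by differences of −1.11 to −0.51. In set B this rests on 1 control array, and the share of all probe sets with this pattern was not counted.

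ttr-52 lay apart by array set, and no treatment passed. The control gave 3.02, 2.30 and 4.16, H3 0.02 gave 2.22, 2.51 and 3.99, and H3 0.2 gave 3.13, 4.67 and 4.16. H3 2 gave 2.62, 2.82 and 4.01, and RE gave 2.62, 4.36 and 4.11. All values of set A lay under all values of set B, and the means of the sets differed by 1.55. The log2 fold-changes of −0.25, 0.83, −0.01 and 0.54 did not pass in any treatment, nor did those with the block (−0.25, 0.34, −0.01 and 0.05). Set A values lay below the array medians.

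Further members changed by less than 2-fold once the set was in the fit. These were picked out after their values had been seen. With the block, 2, 7, 14 and 8 of the 58 members had an adjusted p of at most 0.05 at H3 0.02, H3 0.2, H3 2 and RE, beside 3.35%, 7.22%, 10.9% and 6.1% of all probe sets. Without it there were 0, 0, 2 and 1, beside 0.781%, 1.6%, 2.76% and 1.41%. At an unadjusted p under 0.05, the family's shares with the block were 25.9%, 27.6%, 39.7% and 25.9%. Those of all probe sets were 14.3%, 20.3%, 23.3% and 17.9%, lower in every treatment. The family lay apart by array set more often than all probe sets did, and the block was drawn from these same values. Lower p-values with the block are thus partly built in for the family. These shares cannot show that it answered more than the background. At the adjusted p and 2-fold the family's shares were 0.0%, 1.72%, 1.72% and 3.45%, beside 1.39%, 2.22%, 3.09% and 2.07%. In all, 15 members passed the adjusted p with the block in at least 1 treatment, 8 of them higher and 7 lower. The share of all probe sets that passed in at least 1 treatment, or in several, was not counted. As the treatments share the control arrays, passing in several of them is not independent. ttr-7 and ttr-33 passed in all 4 treatments, and 6 members in at least 3, namely ttr-6, ttr-7, ttr-30, ttr-33, ttr-45 and ttr-46.

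The values of these genes show how small the changes were. ttr-7 gave 6.30, 6.28 and 5.24 in the control and 6.73, 6.88 and 5.96 at H3 2, and with the block it was higher by 0.53, 0.70, 0.58 and 0.53 at H3 0.02, H3 0.2, H3 2 and RE (adjusted p 0.0124, 0.00156, 0.00298 and 0.01). ttr-45 gave 8.55, 8.65 and 7.85 in the control and 9.37, 9.39 and 8.55 at H3 2, and was higher by 0.75, 0.75 and 0.60 at H3 0.2, H3 2 and RE (adjusted p 0.0018, 0.000961 and 0.00791). In both genes the 12 treated arrays were all above the control arrays of the same set. As both were picked from the fit with the block, this restates that fit and adds no support. Set B has 1 control array, and the share of all probe sets with this pattern was not counted. ttr-6 gave 8.07, 7.81 and 7.55 in the control and 8.82, 8.73 and 8.33 at H3 2, with no overlap in that comparison even across the sets, and was higher by 0.73, 0.81 and 0.47 at H3 0.2, H3 2 and RE (adjusted p 0.00324, 0.000843 and 0.0434). ttr-46 went down, from 8.74, 8.62 and 7.69 in the control to 8.24, 7.99 and 6.92 at H3 2, with differences of −0.51, −0.64 and −0.49 at H3 0.2, H3 2 and RE (adjusted p 0.0159, 0.00241 and 0.0215). None of these genes passed from the groups alone.

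**Figure D3:**
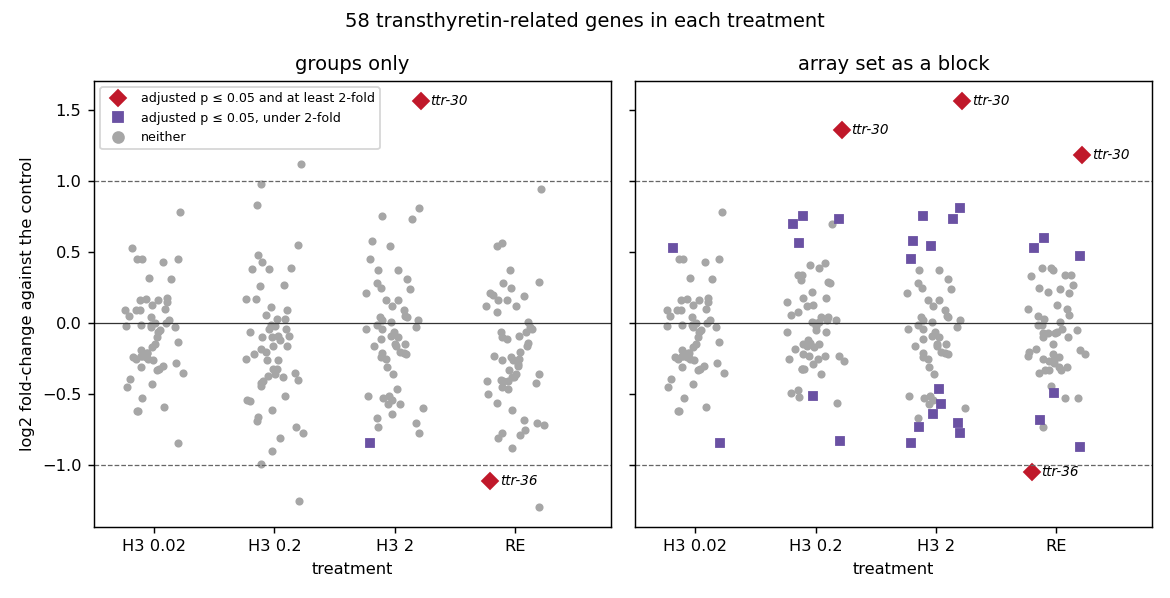
Log2 fold-change against the control (y axis) of each of the 58 genes in the 4 treatments (x axis), from the groups alone at left and with the array set as a block at right, with red diamonds for genes that passed the adjusted p and 2-fold, purple squares for those that passed the adjusted p only and grey points for the rest. Points are spread sideways for legibility. At left only ttr-30 and ttr-36 are red, and at right ttr-30 is red in 3 treatments.

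As a whole the family kept close to the control. The median log2 fold-change of the 58 genes was −0.06, −0.16, −0.07 and −0.25 at H3 0.02, H3 0.2, H3 2 and RE, and that of all probe sets lay between 0.0 and 0.02. With the block the medians were −0.06, −0.01, −0.07 and −0.07, so that the lower medians at H3 0.2 and RE, the groups with more arrays in set B, came nearer to 0. In 55 members the difference was within 1 in all 4 treatments. The typical 95% interval reached 0.59 to either side of a difference, and 0.35 or 0.36 with the block, as medians over the members. The 3 largest F statistics over the 5 groups belonged to ttr-36 (adjusted p = 0.0475), ttr-30 (0.364) and ttr-20 (0.534), of which only that of ttr-36 passed. ttr-20 gave 4.54, 4.88 and 4.79 in the control and 5.27, 5.16 and 5.40 at H3 2, a difference of 0.54 that did not pass from the groups alone (adjusted p = 0.0773) and passed the adjusted p with the block (0.026), under 2-fold. The 3 smallest belonged to ttr-15, ttr-59 and ttr-44.

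Members whose arrays did not overlap with the control were about as common as elsewhere on the array. There were 0 higher and 4 lower at H3 0.02, 4 and 4 at H3 0.2, 4 and 4 at H3 2, and 2 and 6 in RE. The shares of all probe sets were 5.3% and 5.16%, 7.32% and 6.18%, 8.69% and 7.13%, and 6.32% and 6.1%. ttr-36 and ttr-25 were the members below the control in all 4 treatments. ttr-25 gave 6.58, 6.32 and 6.19 in the control and between 5.69 and 6.16 in the treated arrays, with differences of −0.33, −0.32, −0.46 and −0.30 that did not pass from the groups alone (adjusted p 0.121 to 0.631). With the block, ttr-25 passed the adjusted p at H3 2 (−0.46, 0.0159), under 2-fold, and not in the other treatments (0.152, 0.229 and 0.294).

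No member was called between treatments. Between H3 2 and H3 0.02, where 0.0375% of all probe sets were called, 0 members were called by limma and 0 by the methods' test, and 2 had an unadjusted p under 0.05, beside 4.39% of all probe sets. Between H3 0.2 and H3 0.02, H3 2 and H3 0.2, RE and H3 0.2, and RE and H3 2, 0.0% of all probe sets were called, and 0, 1, 1 and 0 members had an unadjusted p under 0.05, beside 2.81%, 4.15%, 2.22% and 3.22%. With the block, 0 members were called in any of these 5 comparisons, beside 0.13%, 0.00682%, 0.00682%, 0.0% and 0.0% of all probe sets. For ttr-30, H3 2 exceeded H3 0.02 by 0.78 (95% interval −0.03 to 1.59, and 0.34 to 1.23 with the block, adjusted p = 0.229). For ttr-36, RE lay below H3 0.2, the fraction at the same concentration, by a difference of −0.56 (95% interval −0.96 to −0.16, unadjusted p = 0.0101, adjusted p = 1.0) and below H3 2 by −0.28 (−0.68 to 0.12). With the block these were −0.56 (−0.92 to −0.20, adjusted p = 1.0) and −0.22 (−0.59 to 0.15).

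The widest pattern in the family was the distance between the array sets, which is given as a description with no test. Of the 58 members, 51 were on average lower in set B, or 87.9%, beside 50.2% of all probe sets, and the median difference was −0.47 for the family and near 0 for all. In 10 members, or 17.2%, set B was lower by at least 1, beside 5.46%, and in 2, or 3.45%, it was higher by at least 1, beside 3.01%. The sets did not overlap in 26 members. Of these, 24 were lower in set B, 41.4% of the family beside 7.54% of all probe sets, and 2 were higher, or 3.45% beside 10.9%. The median of the means was 5.82 for the family and 3.6 for all probe sets, many of which are dim. No share among probe sets of like signal was taken.

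ttr-50 showed the greatest distance. Its set A arrays ran from 3.02 to 4.14, near the array medians, and its set B arrays from 7.06 to 8.21, a difference of means of 3.76. Within every group it was low in the arrays of set A and high in those of set B, as in the control with 3.52, 4.14 and 8.21. The SD within groups fell from 2.26 to 0.33 with the block, and no treatment passed in either fit. After ttr-52, the next members higher in set B were ttr-42 (0.31), ttr-53 (0.25) and ttr-17 (0.08).

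In the other direction, ttr-44 ran from 9.45 to 9.99 in set A and from 7.03 to 8.17 in set B, a difference of −2.28. Replicate 3 of H3 0.2 (8.17) and of RE (7.98) lay highest among its set B arrays, the others reaching 7.37. ttr-14 ran from 9.12 to 9.94 in set A and from 7.44 to 7.75 in set B, a difference of −2.07. ttr-31 (−1.48), ttr-18 (−1.40) and ttr-48 (−1.38) followed. None of these 5 genes was called in any treatment, except ttr-31 at H3 2 when set A alone was fitted (−1.08, adjusted p = 0.0252). Over the family, the median SD within groups was 0.36 from the groups alone and 0.20 with the block.

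Markers of tissues moved between the same sets. The 8 epidermis and cuticle markers had a mean of 8.91 to 9.36 on the arrays of set A and 7.81 to 8.35 on those of set B, with 4 lower in B by at least 1. Among them lin-26 went the other way, higher in B by 0.89. The 8 germline and oocyte markers had 9.50 to 10.09 in set A and 10.72 to 10.98 in set B, with 5 higher by at least 1. The 7 intestine markers measured had 8.22 to 8.64 and 7.62 to 7.92, with 2 lower and 1, the metallothionein gene mtl-2, higher by at least 1. Set B was also lower, with no overlap of the sets, for the means of the body-wall muscle (10.98 to 11.24 against 10.46 to 10.63), pharynx muscle (9.24 to 9.55 against 8.79 to 9.04), sperm (2 genes, 4.30 to 4.72 against 3.26 to 4.07) and neuron markers (7.97 to 8.20 against 7.82 to 7.95). The neuron means lay close, and the neuron markers unc-119 (0.63) and snb-1 (0.07) were higher in set B. The yolk and glia lists overlapped between the sets. The part of these in the family's difference was not tested. None of the marker genes of any tissue was called against the control from the groups alone, and with the block the yolk protein gene vit-1 was lower in all 4 treatments.

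**Figure D4:**
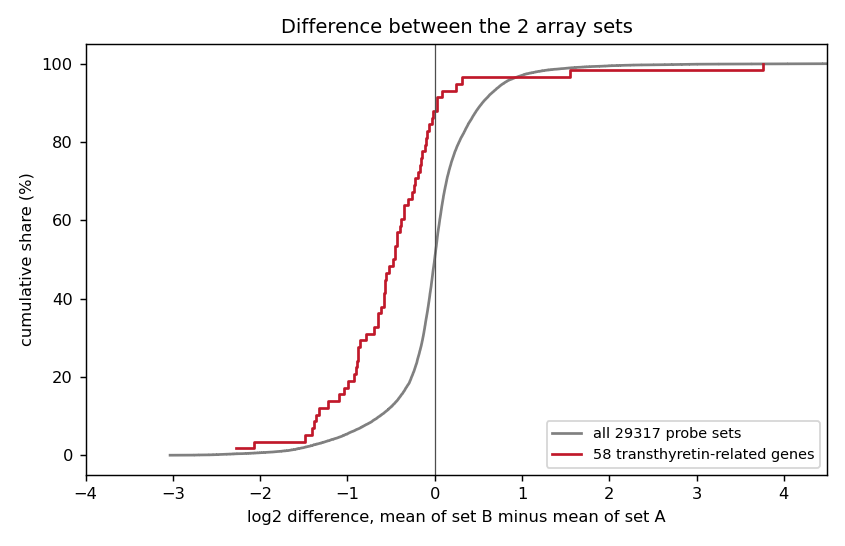
Cumulative share in percent (y axis) of the 58 transthyretin-related genes (red) and of all 29317 probe sets (grey) up to a given log2 difference between the mean of set B and the mean of set A (x axis). The red line lies to the left of the grey one over most of its course, with 87.9% of the family and 50.2% of all probe sets below 0, and its step at the far right is ttr-50.

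The neighbours of the called genes were not called. By gene order in RefSeq, 28 members lie next to another member, in 12 clusters. ttr-30 lies beside ttr-59, whose differences from the control were 0.02, −0.09, 0.24 and −0.03 at H3 0.02, H3 0.2, H3 2 and RE, with none that passed (adjusted p 0.93 to 1.0). With the block they were 0.02, 0.28, 0.24 and 0.34, again with none that passed (0.384 to 0.985). ttr-36 lies beside ttr-35, with differences of −0.21, −0.26, −0.31 and −0.41 and none that passed (adjusted p 0.7 to 1.0), nor with the block (−0.21, −0.12, −0.31 and −0.27, adjusted p 0.252 to 0.731). Whether neighbours differ from each other was not tested. In the cluster of ttr-55, ttr-56 and ttr-58 the first 2 genes overlap in position.

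Genes for the clearance of dying cells and for dopamine were also read, as context for TTR-52 and TTR-33. Whether they act with either protein here was not tested. Of all probe sets, 0.624%, 1.1%, 1.57% and 0.935% were called at H3 0.02, H3 0.2, H3 2 and RE. None of the 14 genes for the clearance of dying cells, the process in which TTR-52 acts, was called in any treatment. The list is not limited to genes that act with TTR-52. Its median differences were 0.05, 0.17, 0.11 and 0.18 at H3 0.02, H3 0.2, H3 2 and RE. Of the 8 genes for dopamine synthesis, transport and reception, 1 was called, lower in all 4 treatments, and 7 in none. Of these 7, cat-1 (mean 3.64), cat-2 (3.63) and dop-2 (3.93) lay near the array medians and were not shown to be above background. The called gene was cat-4, for GTP cyclohydrolase I, which makes the cofactor needed to form dopamine and serotonin. cat-4 gave 8.01, 7.83 and 7.05 in the control and between 5.89 and 6.41 in the treated arrays, with no overlap, and its log2 value decreased by 1.34, 1.57, 1.52 and 1.47 (adjusted p 0.00755, 0.0015, 0.00158 and 0.00281). With the block cat-4 was called in all 4 treatments too (−1.34, −1.46, −1.52 and −1.36). The calls were lost with only the 6 arrays of both groups fitted (0.274, 0.114, 0.0987 and 0.15), and that at H3 0.02 also without control replicate 2 (0.0507). In set B alone the differences were −0.87, −1.02, −1.16 and −0.94, and with 1 control array that fit cannot decide the calls.

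The urate pathway holds an enzyme with a transthyretin-like fold, 5-hydroxyisourate hydrolase, which is no ttr gene. Of its 3 listed genes 2 had a probe set. R09H10.3, annotated as a probable 5-hydroxyisourate hydrolase, gave 5.43, 5.27 and 4.46 in the control and 3.57, 3.35 and 3.63 at H3 2, with no overlap. The H3 2 values lay near the array medians of 3.54 to 3.65 and were not shown to be above background. Its log2 value decreased by 1.54 at H3 2 (adjusted p = 0.0109) and did not pass at H3 0.02, H3 0.2 or RE (−0.81, −1.13 and −1.12, adjusted p 0.402, 0.0791 and 0.0888). The call was lost without control replicate 1 (0.0615), control replicate 2 (0.057) or replicate 2 of H3 2 (0.0584), and with only 6 arrays (0.095). In set B alone, with 1 control array, the difference at H3 2 was smaller, at −0.83. With the array set block it was −1.54 at H3 2 (0.000519), and −0.98 both at H3 0.2 (0.0164) and in RE (0.0182), under 2-fold. R09H10.3 was called at H3 0.2 and in RE as well without control replicate 3 (0.0158 and 0.0168) or replicate 1 of RE (0.031 and 0.021), and with the replicate number as a block (0.0227 and 0.0256). In set A alone, with 1 array of H3 0.2, its difference there was −1.35. ZK697.8 lay below the median of every array and was not called.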

How the data were processed

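The authors normalised the arrays with RMA (Affymetrix Expression Console and Partek, versions not given in the sources used here), and the deposited values are log2 expression values, used as they are. Probe sets were named from GEO's platform annotation, and 25546 have 1 gene, 646 several and 3125 none. Members and gene lists were chosen with earlier results of these data known, and the members named are those called, those with a known role or named by the paper, and those extreme in mean, in set difference or in F.

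All 29317 probe sets were fitted with limma 3.58.1 (R 4.3.3), with 1 mean per group and eBayes, and Benjamini-Hochberg adjustment within each of 9 comparisons. Calls needed an adjusted p up to 0.05 and a log2 difference of 1 or more in size. The methods' test was analysis of variance with Fisher's least significant difference. Fits were tested on simulated data. The number of arrays limits the precision.

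Whether the replicate numbers pair samples cannot be told from residual correlations, as only group means were taken out and the array sets remain. Same-numbered arrays were positively correlated within a set and negatively across the sets. Arrays of a set with different numbers were not compared. Residual correlations of same-numbered arrays were over 0.1 within control, H3 0.02 and H3 2 (0.421 to 0.803) and within H3 0.2 and RE (0.454 to 0.775), but replicate 2 of H3 0.2 and RE against that of the others gave −0.588 to −0.441. No sequences were used, and RefSeq positions served only to find which members neighbour or overlap each other.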

Additional observations from a re-analysis of the deposited data

How the results depend on the processing

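From the groups alone the fit called 0, 0, 1 and 1 of the 58 genes at H3 0.02, H3 0.2, H3 2 and RE, and 0 in the comparisons between treatments. With the replicate number as a block these counts were 0, 0, 1 and 1 as well, and of the calls of other genes named it changed those of R09H10.3, which passed at H3 0.2 and in RE too. An intensity trend, centring on the median, a filter on dim probe sets and restriction to probe sets of 1 gene left the counts as they were. With the array set as a block there was 1 at H3 0.2 and 2 in RE. Set A alone gave 1 at H3 0.02 and 2 at H3 2, where ttr-31 joined ttr-30. Of all 29317 probe sets, 496 and 1106 were called there. Set A held 1 array each of H3 0.2 and RE, and set B 1 control array, so that no counts are given for these. In set B alone ttr-30 was higher by 1.00 at H3 2, and ttr-36 differed by −1.03 in RE. At H3 2 the call was lost with only the 2 groups fitted (0) and with the methods' test (0). Leaving out 1 array gave 0 to 1 at H3 2 and 0 to 1 in RE. The cause was not tested. ttr-30 at H3 0.02 turned to −0.06 and ttr-20 to −0.01 in set B alone. ttr-52 turned to 0.07 at H3 2 and −0.04 in RE in set A alone. When 1 array was left out, ttr-52 ran from −0.80 to 0.25 at H3 0.02 and from −0.44 to 0.49 at H3 2, ttr-7 from −0.15 to 0.39 and ttr-45 from −0.03 to 0.47 in RE, and ttr-46 from −0.76 to 0.01 at H3 0.02, none of them past the threshold.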
